A study of Mus musculus with 4 samples.

Results

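Cathepsins are the proteases of the endosome and lysosome, and 10 genes of the mouse family were examined here in lumbar spinal cord RNA: Ctsa, Ctsb, Ctsc, Ctsd, Ctse, Ctsh, Ctsk, Ctsl, Ctss and Ctsz. They were chosen by gene name, with earlier results of these data known. All 10 were found among the 18674 gene names of the deposited table, and other cathepsins in it are described further below. Ctsa has 2 transcript rows, which were averaged, and each of the other members has 1. The libraries came from wild type (WT) mice and from G93A mice, which carry a human SOD1 transgene with the G93A mutation and serve as a model of amyotrophic lateral sclerosis (ALS). Animals of each genotype were given spermidine (SD), a natural polyamine, or vehicle, and every condition has 1 library: WT vehicle, G93A vehicle, WT + SD and G93A + SD. The labels give 30 days of treatment at 4 times a week with SD or PBS, and the RNA sequencing methods give an age of 100 days. The methods describe high-expresser G93A males bred with B6/SJLF1 females, only males in the treatment studies, and intraperitoneal SD at 5 mg/kg with saline as the control. The number of animals behind a library is not stated in the sources used here. With 1 library per condition no difference has a replicate check, so that folds between libraries are described and no p-value is given.

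Cathepsins are made as inactive precursors, tagged with mannose 6-phosphate in the Golgi, carried to late endosomes and activated there at acid pH. They fall into classes by the residue that cuts the peptide bond. Ctsb, Ctsc, Ctsh, Ctsk, Ctsl, Ctss and Ctsz encode cysteine proteases of the papain family, Ctsd and Ctse encode aspartic proteases, and Ctsa encodes a serine carboxypeptidase. In the central nervous system, microglia and macrophages are rich in lysosomal proteases, and cystatins and some serpins are their inhibitors. Transcription factors of the microphthalmia family bind the palindrome TCACGTGA or its core CACGTG before many lysosomal genes, and the myeloid factor PU.1 binds purine-rich sites with GAGGAA.

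Promoter windows of the members are shown first, and their link to the levels was not tested. RefSeq windows (GRCm38.p6) of 250 bases before to 50 bases after a start site were given for 7 members, Ctsa with 2 windows, and not for Ctsb, Ctse and Ctsh. Both strands were searched for 4 motifs, which were CACGTG, the longer TCACGTGA that contains it, the purine motif GAGGAA, and TGACTCA, the site of AP-1. Of 32851 promoter windows of this length, 7.15% held CACGTG, 0.974% TCACGTGA, 28.3% GAGGAA and 5.20% TGACTCA. TCACGTGA was found in the windows of Ctsa and Ctsd. Ctsa, in the window of its downstream start site, held 2 copies around that site, and Ctsd held 1, together with a further CACGTG whose first base lies at -245 from its start site. Ctsl held CACGTG 1 time, at -236. GAGGAA was found 2 times in each of Ctsc, Ctsk and Ctss, the Ctsz window held none of these motifs, and TGACTCA was in no member's window. The sites of Ctsa (chr2:164833758-164833787, plus strand, from -15 to 15 around the start site) and Ctsd (chr7:142387908-142387937, minus strand, -110 to -81) are printed with TCACGTGA in capitals. These sites, and the CACGTG of Ctsl, lie within the span of the GENCODE transcript given for each gene, and annotated exons cover 211 of the 250 bases before the RefSeq start site in Ctsd, 164 in this window of Ctsa and 48 in Ctsl. The 250 bases before the start sites of Ctss (chr3:95526536-95526785, plus strand), which was higher in G93A, and of its neighbour Ctsk (chr3:95498960-95499209, plus strand), the member that was not, are printed with GAGGAA or its complement in capitals.
Ctsa: tgTCACGTGAtgcagatgcTCACGTGAcca
Ctsd: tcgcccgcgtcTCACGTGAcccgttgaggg
Ctss: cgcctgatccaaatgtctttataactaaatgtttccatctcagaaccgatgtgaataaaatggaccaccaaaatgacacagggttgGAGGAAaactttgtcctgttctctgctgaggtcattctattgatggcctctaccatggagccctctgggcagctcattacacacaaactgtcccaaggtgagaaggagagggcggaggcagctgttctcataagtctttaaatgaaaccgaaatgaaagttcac
Ctsk: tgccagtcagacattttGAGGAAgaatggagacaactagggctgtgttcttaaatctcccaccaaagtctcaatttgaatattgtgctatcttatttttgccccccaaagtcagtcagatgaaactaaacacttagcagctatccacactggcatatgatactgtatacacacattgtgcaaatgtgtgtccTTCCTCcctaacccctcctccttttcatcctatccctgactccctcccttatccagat
In the printed 250 bases Ctss holds GAGGAA at -164, and its other match begins at 1, after them. Ctsk holds it at -233 and, on the other strand, at -58. A match describes the letters only.

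Levels are given in RPKM, reads scaled to transcript length and library size. The header names no unit, and this one was inferred. The unit takes out transcript length, so that levels of different genes can be set side by side. Low values multiplied by transcript length were often whole multiples of a step, from which a depth of 36.8 to 38.6 M read pairs per library was estimated. The labelled tissue was checked on its markers. All 5 lumbar Hox genes were above 0 in every library, with sums of 37.0 and 38.8 RPKM in WT vehicle and WT + SD and of 25.7 and 24.6 RPKM in G93A vehicle and G93A + SD. Of these 5 genes, 2 were at least 1.5-fold lower in G93A under vehicle and 3 under SD, and what part tissue make-up has in the genotype folds was not tested. The 6 oligodendrocyte genes summed to between 6573 and 9067 RPKM. The human transgene was not analysed here.

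In the lumbar cord of G93A mice given vehicle, 9 of the 10 cathepsin genes stood at least 1.5-fold above WT vehicle, by 2.64-fold to 8.29-fold, and Ctsk did not. Over all 18237 names above 0 in either library, 20.7% were at least 1.5-fold higher and 10.5% lower. Among the 12987 names that averaged 1 RPKM or more, 13.5% were higher and 4.68% lower. All 10 members belong to this class, but Ctse only through its G93A + SD value, so the share within the class is no measure for Ctse here or under SD. The sum over the members was 468 RPKM in WT vehicle, 454 RPKM in WT + SD, 2700.1 RPKM in G93A vehicle and 2901 RPKM in G93A + SD. The G93A sum was therefore 5.76-fold higher under vehicle and 6.38-fold higher under SD. From 0.182% of the summed RPKM of all names in WT vehicle the cathepsins went to 0.976% in G93A vehicle.

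**Figure D1:**
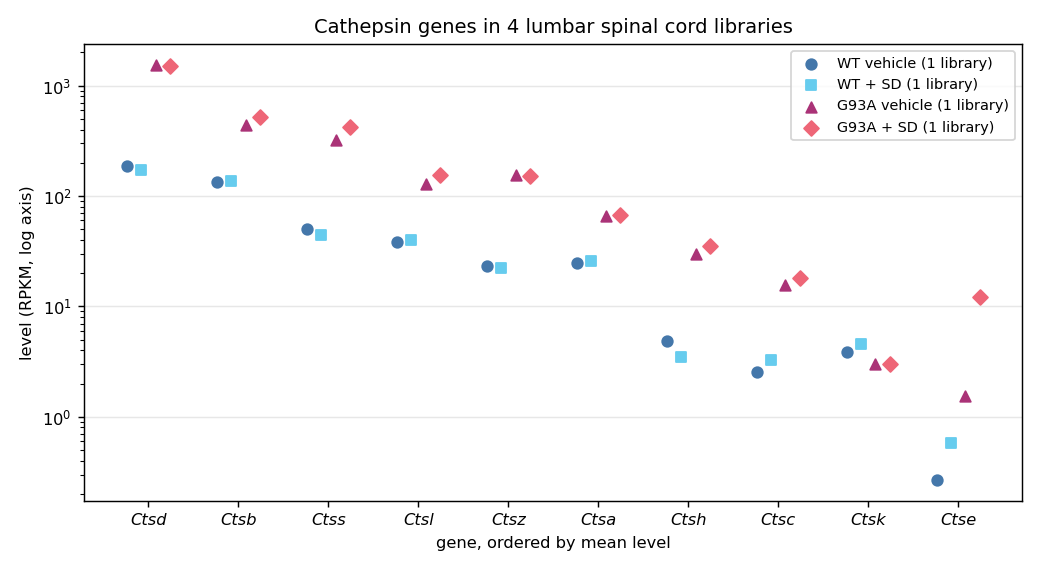
Level in RPKM (log axis) of each cathepsin gene in the 4 libraries, ordered by mean level, with 1 point per library and no error because each condition has 1 library. The G93A points lie above the WT points for every member except Ctsk, and Ctse in G93A + SD (12.1 RPKM) stands apart from Ctse in the other libraries.

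Ctsd, the main aspartic endopeptidase of lysosomes, had the highest level of all members in every library. Its level was 186 RPKM in WT vehicle, 174 RPKM in WT + SD, 1545 RPKM in G93A vehicle and 1516 RPKM in G93A + SD. The WT libraries were close to each other, and the G93A libraries lay far above them. The G93A level was 8.29-fold that of WT under vehicle and 8.74-fold under SD. By level, it went from rank 126 of all names in WT vehicle to rank 6 in G93A vehicle, and from rank 134 in WT + SD to rank 7 in G93A + SD. Its share of the summed cathepsin RPKM went from 39.8% in WT vehicle to 57.2% in G93A vehicle. The listed Ctsd transcript (chromosome 7, 142375911 to 142388038 of GRCm38, minus strand, 9 exons) shares 808 exonic bases with Gm49369, an annotated gene on the same strand. Of its 2075 windows of 53 bases, the read length, 757 (36.5%) also occur there, and how such reads were assigned is not stated.

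**Figure D2:**
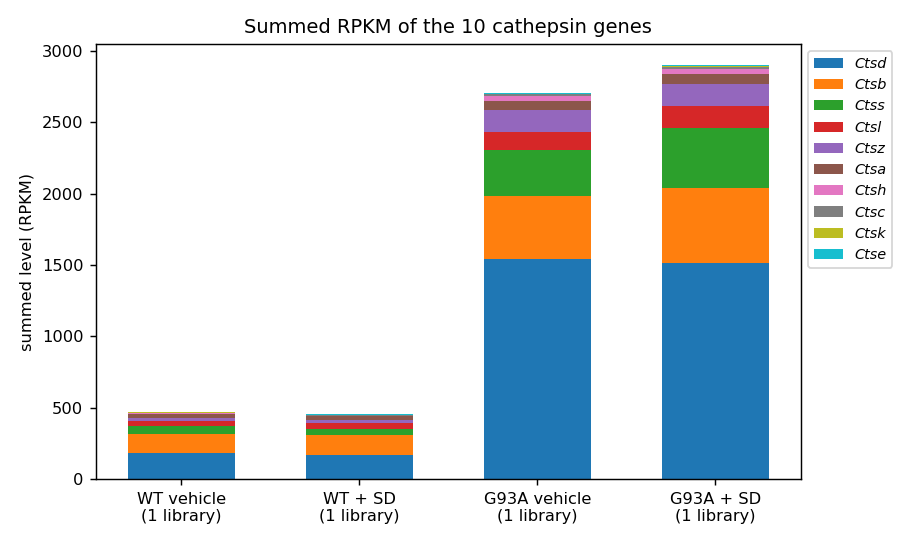
Summed level in RPKM of the 10 cathepsin genes in each of the 4 libraries, with each bar stacked by gene from 0. The bars of G93A vehicle (2700.1 RPKM) and G93A + SD (2901 RPKM) are made up largely of Ctsd, Ctsb and Ctss.

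Ctsb, a cysteine protease that works as an endopeptidase and as a peptidyl dipeptidase, was second in level in every library. Its values were 133 RPKM in WT vehicle, 137 RPKM in WT + SD, 438 RPKM in G93A vehicle and 522 RPKM in G93A + SD. Ctsl, a potent cysteine endopeptidase, had 38.7, 39.7, 127 and 154 RPKM in the same order. The pair followed each other closely. Under vehicle, Ctsb was 3.28-fold and Ctsl 3.29-fold higher in G93A, and under SD the folds were 3.81 for Ctsb and 3.87 for Ctsl. For Ctsb (chromosome 14, 63122462 to 63145923, plus strand, 10 exons), 774 exonic bases overlap Fdft1 on the opposite strand, and whether reads were counted by strand is not stated. Fdft1 itself went from 28.6 RPKM in WT vehicle to 25.4 RPKM in G93A vehicle. Ctsl (8 exons) lies on the minus strand of chromosome 13, from 64359337 to 64370890, and none of its 53-base windows occurs in another gene.

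Ctss, an endopeptidase of antigen-presenting cells that stays active at neutral pH and cuts the invariant chain of MHC class II, showed larger folds. Its level was 50.4 RPKM in WT vehicle, 44.3 RPKM in WT + SD, 320.0 RPKM in G93A vehicle and 421 RPKM in G93A + SD. The G93A + SD library was the highest, and the G93A libraries lay well above the WT libraries. Between genotypes the fold was 6.35 under vehicle and 9.51 under SD. In rank among all names, Ctss went from 917 in WT vehicle to 63 in G93A vehicle. The listed transcript has 8 exons and spans 95526786 to 95556403 of chromosome 3.

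The exopeptidases among the cysteine cathepsins were also higher in G93A. Ctsz, a carboxypeptidase, had 23.3 RPKM in WT vehicle, 22.1 RPKM in WT + SD, 155 RPKM in G93A vehicle and 152 RPKM in G93A + SD, which is 6.63-fold higher in G93A under vehicle and 6.88-fold under SD. Ctsh, an aminopeptidase, had 4.84, 3.51, 29.6 and 35.1 RPKM in the same order, with folds of 6.12 and 9.98. The larger fold of Ctsh under SD goes with a lower value in WT + SD and a higher value in G93A + SD. Ctsc encodes dipeptidyl peptidase I, which activates the serine proteases of immune cell granules. Its level was 2.52 RPKM in WT vehicle, 3.27 RPKM in WT + SD, 15.5 RPKM in G93A vehicle and 18.1 RPKM in G93A + SD, with folds of 6.16 and 5.54. The WT vehicle values of Ctsc and Ctsh rest on an estimated 232 and 288 read pairs. Ctsz lies on chromosome 2 from 174427493 to 174439039 (minus strand), Ctsh on chromosome 9 from 90054152 to 90076089 (plus strand) and Ctsc on chromosome 7 from 88278085 to 88310888 (plus strand).

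Ctsa, a carboxypeptidase that also protects beta-galactosidase and neuraminidase in the lysosome, had the smallest of the 9 increases in G93A under vehicle and under SD. Its level was 24.8 RPKM in WT vehicle, 26.0 RPKM in WT + SD, 65.5 RPKM in G93A vehicle and 67.8 RPKM in G93A + SD. The folds were 2.64 under vehicle and 2.61 under SD. The rows of Ctsa differed little, with 66.5 and 64.4 RPKM in G93A vehicle. Its exons on chromosome 2 (164832873 to 164841032, plus strand) overlap Pltp and Neurl2 on the opposite strand over 635 bases. Pltp went from 27.0 RPKM in WT vehicle to 32.5 RPKM in G93A vehicle, and Neurl2 had 1.61 and 2.03 RPKM.

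Ctsk, the collagen-cutting cathepsin of bone-resorbing osteoclasts, did not follow the other members. Its level was 3.90 RPKM in WT vehicle, 4.61 RPKM in WT + SD, 3.02 RPKM in G93A vehicle and 2.99 RPKM in G93A + SD, so that both G93A values lay below both WT values. In G93A vehicle it was 1.29-fold lower than in WT vehicle, short of the 1.5-fold threshold, and in G93A + SD it was 1.54-fold lower than in WT + SD. This was the only member called lower in a comparison, against 12.8% of all names (8.12% of those averaging 1 RPKM or more) at least 1.5-fold lower under SD. With a pseudocount of 1 RPKM or a 2-fold threshold Ctsk was no longer called. Its values rest on an estimated 173 to 267 read pairs. Ctsk and Ctss are neighbours on chromosome 3, Ctsk from 95499256 to 95509362 and Ctss starting at 95526786, both on the plus strand.

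Ctse, an aspartic protease of endosomes in gastric and immune cells, was the lowest member in WT vehicle, WT + SD and G93A vehicle, and it differed most between SD and vehicle. Its level was 0.267 RPKM in WT vehicle, 0.583 RPKM in WT + SD, 1.54 RPKM in G93A vehicle and 12.1 RPKM in G93A + SD. The G93A + SD library stood far above the other libraries. The G93A level was 5.75-fold that of WT under vehicle and 20.8-fold under SD, as deposited the largest fold of any member under SD. With a pseudocount of 1 RPKM the Ctse fold under SD was 8.28, below those of Ctss (9.32) and Ctsd (8.69). About 20.9, 47.4, 124 and 993 read pairs were estimated behind these values, so that the WT values rest on few reads. None of the 53-base windows of its transcript (chromosome 1, 131638306 to 131675505, plus strand, 10 exons) occurs in another gene.

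**Figure D3:**
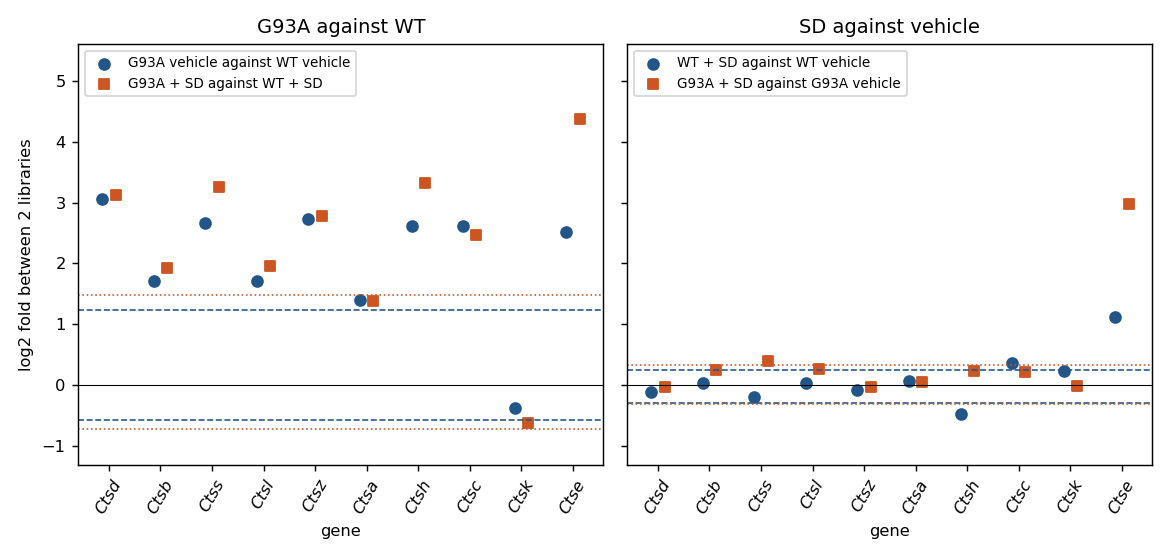
Log2 fold of each cathepsin gene between 2 libraries, for G93A against WT (left) and SD against vehicle (right), with 1 library on each side of a fold. Dashed (circles) and dotted (squares) lines mark the 5th and 95th percentile of the log2 fold (pseudocount of 0.1 RPKM) over names with a mean of at least 1 RPKM, and in G93A against WT all members except Ctsk and, under SD, Ctsa lie above the upper line, which is no measure for Ctse because it reaches that mean only through G93A + SD.

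When both genotypes had received SD, the same 9 members were at least 1.5-fold higher in G93A, by 2.61-fold to 20.8-fold, against 23.8% of all names (16.3% of those averaging 1 RPKM or more). The median fold over the 10 members was 5.93 under vehicle and 6.21 under SD. In log2 terms with a pseudocount of 0.1 RPKM the medians were 2.37 and 2.61, beside 0.057 and 0.061 over all names tested. The order of levels in WT vehicle ran Ctsd, Ctsb, Ctss, Ctsl, Ctsa, Ctsz, Ctsh, Ctsk, Ctsc and Ctse. In G93A vehicle Ctsz (155 RPKM) stood above Ctsl (127 RPKM) and Ctsa (65.5 RPKM), and Ctsc (15.5 RPKM) above Ctsk (3.02 RPKM). In G93A + SD Ctsl (154 RPKM) again stood above Ctsz (152 RPKM), and Ctse above Ctsk. The WT + SD order was that of WT vehicle with Ctsk above Ctsh. Without replicates it cannot be said which neighbours in these orders differ beyond the spread between animals. The comparisons under vehicle and under SD share no library, whereas each shares a library with the comparisons of SD against vehicle.

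Between the G93A libraries, Ctse was the only member past 1.5-fold, with 12.1 RPKM in G93A + SD against 1.54 RPKM in G93A vehicle, a 7.87-fold difference. Over all names tested, 8.89% were at least 1.5-fold higher in G93A + SD and 7.46% lower, and among names averaging 1 RPKM or more the shares were 1.34% and 1.04%. Ctse averages 1 RPKM or more only through its G93A + SD value, so the latter shares are no measure for it. The methods give a mixed B6/SJLF1 background, and with 1 library per condition a difference between animals and a difference with SD cannot be told apart. With 0.1 RPKM added before taking log2, 6 of 18300 names had a larger fold than Ctse. Of the other members, Ctss was 1.32-fold higher, Ctsl 1.21-fold, Ctsb 1.19-fold, Ctsh 1.18-fold and Ctsc 1.17-fold, and Ctsa, Ctsk, Ctsz and Ctsd lay between 0.981 and 1.04. None of the members that were high in G93A vehicle was as low as in WT in the G93A + SD library. The median log2 fold over the 10 members was 0.23, beside 0.012 over all names tested. The microglial markers had a median of 0.16 and the astrocyte markers of 0.22 in the same comparison, and their part in the cathepsin values was not tested.

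Between the WT libraries, Ctse was again the only member past 1.5-fold, with 0.583 RPKM in WT + SD against 0.267 RPKM in WT vehicle, a 2.18-fold difference. The shares over all names tested were 7.40% higher and 8.82% lower, and 0.909% and 1.36% among names averaging 1 RPKM or more, a class that Ctse enters only through G93A + SD. With a pseudocount of 1 RPKM the Ctse fold was 1.25, short of the threshold. Ctsh was 1.38-fold lower in WT + SD, with 3.51 against 4.84 RPKM, and Ctsc was 1.30-fold higher, with 3.27 against 2.52 RPKM. The other members lay between 0.879-fold and 1.18-fold, Ctss lowest and Ctsk highest. Markers of blood moved with Ctse between these libraries, all 3 of them at least 1.5-fold higher in WT + SD, and their sum was 17.8 RPKM in WT vehicle and 35.7 RPKM in WT + SD. Between the G93A libraries that sum was 26.5 RPKM under vehicle and 28.8 RPKM under SD. T and NK cell markers were also higher in the SD libraries, 6 of 6 at least 1.5-fold in WT and 4 of 6 in G93A. Of the 6, 4 were at 0 in WT vehicle and passed in WT for that reason alone. The 6 markers summed to 0.0161 RPKM in WT vehicle, 0.369 RPKM in WT + SD, 0.450 RPKM in G93A vehicle and 0.736 RPKM in G93A + SD. That sum has the same order as Ctse, at levels of few reads. Of the single markers, Cd3d, Cd3g, Cd8a and Gzma were higher in WT + SD than in G93A vehicle, unlike Ctse. The part of blood and of these cells in the Ctse values was not tested. Of the 4 B cell markers, 2 were at least 1.5-fold higher and 2 lower in G93A + SD than under vehicle, with sums of 0.124 to 0.219 RPKM over the libraries, and their part was not tested either.

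Markers of other cells moved with the cathepsins between genotypes. The 12 microglial markers summed to 157 RPKM in WT vehicle, 150 RPKM in WT + SD, 717 RPKM in G93A vehicle and 786 RPKM in G93A + SD, and none was at 0 in any library. In G93A, 11 of the 12 were at least 1.5-fold higher under vehicle and 11 under SD. Their folds under vehicle ran from 1.05 to 14.4, the latter for Tyrobp, the signalling adaptor of TREM2. The folds of Ctsd, Ctsz, Ctss, Ctsc, Ctsh and Ctse under vehicle were each larger than those of 9 of the 12 markers, those of Ctsb and Ctsl larger than 5, that of Ctsa larger than 4, and that of Ctsk larger than 0. Of the 6 astrocyte markers, 4 were at least 1.5-fold higher in G93A under vehicle and 5 under SD, and 0 lower. They summed to 990.4 RPKM in WT vehicle, 929 RPKM in WT + SD, 3066 RPKM in G93A vehicle and 3639 RPKM in G93A + SD, of which Gfap, the intermediate filament gene of reactive astrocytes, made up 441, 386, 2269 and 2707 RPKM. Of the 7 motor neuron markers, 4 were at least 1.5-fold lower in G93A under vehicle and 5 under SD, and 0 higher. Their sum went from 406 and 384 RPKM in the WT libraries to 220.2 RPKM in G93A vehicle and 143 RPKM in G93A + SD, of which Nefh, a neurofilament gene, made up 327 and 313 RPKM in the WT libraries, 159.9 RPKM in G93A vehicle and 99.2 RPKM under SD. In bulk tissue, more cells of a type and more RNA per cell cannot be told apart.

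Cell types that are rarer in the cord had low markers throughout. The 5 markers of perivascular macrophages summed to between 0.925 and 2.38 RPKM, highest in G93A + SD. Neutrophil markers (6 in the table) summed to between 0.819 and 2.47 RPKM, highest in G93A vehicle, where 4 of the 6 were at least 1.5-fold above WT vehicle, S100a9 by 3.89-fold. The defining marker Elane was at 0 except in G93A vehicle (0.013 RPKM). All 6 T and NK cell markers were higher in G93A vehicle, with 4 of the 6 at 0 in WT vehicle. Of the osteoclast markers, which bear on Ctsk, 2 of 4 were in the table. Acp5, which activated microglia and macrophages also express, went from 0.029 RPKM in WT vehicle to 1.66 RPKM in G93A vehicle, and Calcr was at 0.160 and 0.157 RPKM. The part of these cells in the cathepsin values was not tested.

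**Figure D4:**
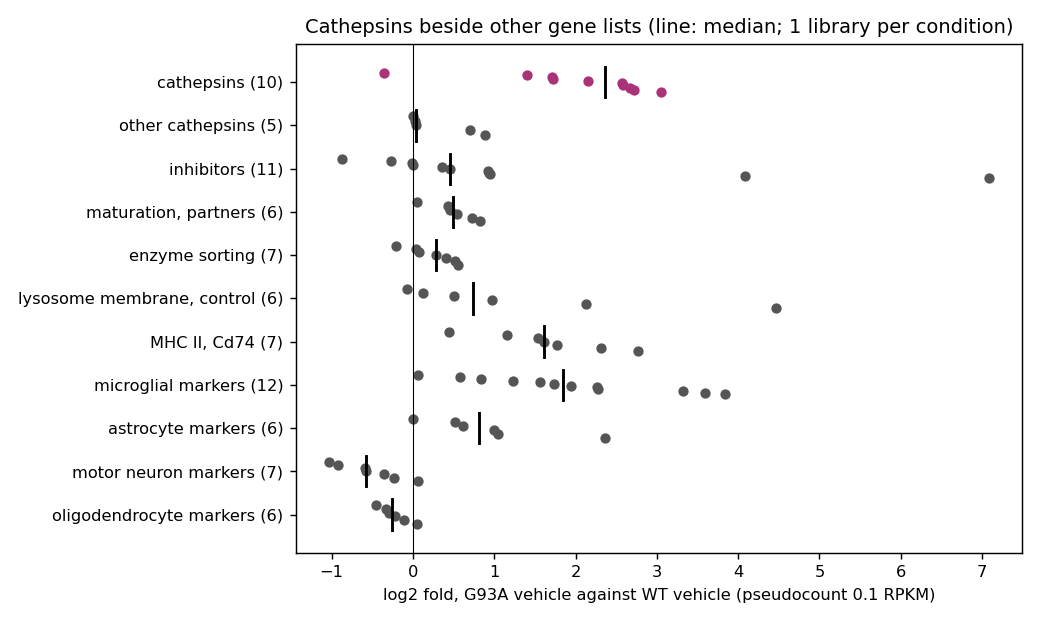
Log2 fold of each gene in G93A vehicle against WT vehicle (pseudocount of 0.1 RPKM) for the 10 cathepsins and for other gene lists, with the number of genes in the table in brackets and a line at each median. The cathepsins have a median of 2.37 and the microglial markers of 1.84, while the genes of lysosomal enzyme sorting have a median of 0.28.

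Of 12 other cathepsins on the list, 5 were in the table, of which Ctso and Ctsw were at least 1.5-fold higher and 0 lower in G93A vehicle. Ctsm also passed, but only because it was listed at 0 in WT vehicle, and its level in G93A vehicle was below that of 1 read pair. Ctso had 14.6 RPKM in WT vehicle, 14.0 RPKM in WT + SD, 23.8 RPKM in G93A vehicle and 29.7 RPKM in G93A + SD, which is 1.64-fold and 2.11-fold higher in G93A. Ctsf, at 19.8, 17.5, 20.3 and 20.4 RPKM, was called in none of the 4 comparisons. Ctsw, which marks cytotoxic lymphocytes, had 0.110, 0.0633, 0.286 and 0.161 RPKM.

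Of the cystatin and serpin genes listed as cathepsin inhibitors, 11 were in the table. In G93A vehicle 6 of the 11 were at least 1.5-fold higher and 1 lower. Of the 6, Cst8 passed only because it was listed at 0 in WT vehicle. Whether each of them inhibits the members was not examined. Cst3 (cystatin C), a secreted inhibitor of cysteine cathepsins, had 633 RPKM in WT vehicle, 651 RPKM in WT + SD, 1211 RPKM in G93A vehicle and 1486 RPKM in G93A + SD. Serpina3n, an acute phase serpin, had 27.8, 24.5, 473 and 772 RPKM in the same order, a 1.63-fold difference between the G93A libraries. Serpinb6a had 32.9, 30.1, 41.9 and 41.2 RPKM. Cst7 (cystatin F), which inhibits Ctsc among others, is named here after its values were seen. Its level was 0.273 RPKM in WT vehicle, 0.127 RPKM in WT + SD, 50.7 RPKM in G93A vehicle and 56.7 RPKM in G93A + SD. Between genotypes under vehicle this is 186-fold, well beyond the 6.16-fold of Ctsc.

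Genes that mature or partner cathepsins had smaller folds than most of the cathepsins. Of 6 such genes, 3 were at least 1.5-fold higher and 0 lower in G93A vehicle, and 4 were higher and 1 lower in G93A + SD against WT + SD, with a median log2 fold of 0.50 and 0.72. Lgmn (legumain), which processes cysteine cathepsin precursors, went from 86.4 RPKM in WT vehicle to 143 RPKM in G93A vehicle. Psap (prosaposin), which Ctsd cuts into saposins, had 477 and 643 RPKM, and Tpp1, a lysosomal tripeptidyl peptidase, had 25.1 and 44.6 RPKM. Neu1 and Glb1, the enzymes that Ctsa protects, are named after their values were seen. Neu1 went from 10.7 to 11.1 RPKM and Glb1 from 8.54 to 12.5 RPKM between these libraries.

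In the 7 genes that sort lysosomal enzymes, through mannose 6-phosphate or, as Sort1 and Lrp1, without it, 0 were at least 1.5-fold higher or lower in G93A vehicle, and 2 were higher in G93A + SD against WT + SD. Sort1 (sortilin) went from 62.0 RPKM in WT vehicle to 53.8 RPKM in G93A vehicle, M6pr, the cation-dependent receptor, had 43.1 and 57.3 RPKM, and Lrp1, an endocytic receptor, had 27.3 and 39.2 RPKM. Lysosome membrane and control genes numbered 6 in the table, with 3 higher and 0 lower in G93A vehicle. Lamp1 went from 255 to 363 RPKM, Lamp2 from 43.3 to 84.9 RPKM and Cd68, the macrophage member of the LAMP family, from 3.75 to 85.2 RPKM.

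Ctss and Ctsl cut the invariant chain, so the genes of MHC class II presentation were examined as well. Of 7 genes, 7 were at least 1.5-fold higher in G93A under vehicle and 6 under SD. Between the G93A libraries 5 of the 7 were at least 1.5-fold lower under SD, beside 7.46% of all names tested. The median log2 fold of the 7 was -0.67, while Ctss was 1.32-fold higher. Between the WT libraries 1 of the 7 was lower under SD. With 1 library per condition and a mixed B6/SJLF1 background, a difference between animals and a difference with SD cannot be told apart. Cd74, the invariant chain, was level at 11.0 RPKM in G93A vehicle and 10.9 RPKM in G93A + SD. H2-DMa had 15.1 RPKM in G93A vehicle and 9.44 RPKM in G93A + SD, against 4.88 and 4.43 RPKM in WT vehicle and WT + SD. The class II genes had low levels, and how reads shared between such similar genes were assigned is not stated.

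Likeness of pattern was measured as the distance between log2 values (pseudocount of 0.1 RPKM) over the 4 libraries, each gene centred on its own mean, among 8839 other genes averaging 5 RPKM or more. Ctsb and Ctsl were nearest to each other among the members, at a distance of 0.018, and shared Golm1 as the nearest other gene, at 0.018 and 0.034. Golm1 had 4.92 RPKM in WT vehicle, 5.03 RPKM in WT + SD, 16.2 RPKM in G93A vehicle and 19.2 RPKM in G93A + SD. For Ctsh the nearest gene was Irf8, a transcription factor of microglia and other myeloid cells (0.093), for Ctss it was Tlr2 (0.124), and for Ctsd it was Emr1, the gene of the macrophage antigen F4/80 (0.123). Tagln2 was nearest to Ctsc (0.080), Mt2 to Ctsz (0.112), Vcam1 to Ctsa (0.090) and Gpr39 to Ctsk (0.048). Ctse had no close neighbour, since its nearest gene, Fcrls, lay at 1.32. With 4 libraries that mainly differ by genotype, such a distance describes these libraries only.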

How the data were processed

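The authors deposited 1 table of normalized values per library, taken here as RPKM (scaled to transcript length and library size). This was inferred from the values, since neither header nor methods name the unit. The methods and the submitters' processing notes give alignment with STAR to GRCm38 (mm10), and the methods name HTSeq with Ensembl genes for counting, whereas the deposited rows are 23750 RefSeq transcripts. The authors' ratio columns were not used. Rows of a name were averaged, and a name was called at 1.5-fold, the threshold of the study, as deposited and without a pseudocount. A name at 0 in 1 library only also passes. Log2 values of lists have a pseudocount of 0.1 RPKM. Genes named beyond the members are those with the highest means in each list (at most 3), the gene nearest in pattern to each member, and genes whose exons overlap a member's. Other names (Elane, Ctsm, Cst8, Cd8a, Gzma, Pm20d1 and those the text says) were picked with their values known. The members and lists were chosen with earlier results of these data known.

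Depth was estimated from RPKM multiplied by the length of the paired GENCODE M21 transcript, which 97.0% of rows have. Of the 953 to 1055 low values in each library, 35.8% to 39.0% lay within 0.02 steps of 0.5, 1 or 2 steps, against 6.67% for an even spread. The step was read as 1 read pair, and no interval was derived from it. Gene positions are those of GENCODE M21. Each 53-base window of a member was looked up in the GENCODE M21 transcripts of every other gene, on the transcript strand. Alternatives were median-ratio scaling, pseudocounts of 0.1 and 1 RPKM, the row with the highest mean, any row, a mean of at least 1 RPKM and a 2-fold threshold. The calls were tested on simulated data. Tools were pandas 2.3.3, matplotlib 3.10.9 and numpy 2.4.6 under Python 3.11.15.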

Additional observations from a re-analysis of the deposited data

Results flagged for a closer look

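In 3 members SD went with opposite directions in the genotypes, which was not tested because each condition has 1 library. Ctsh went from 4.84 to 3.51 RPKM with SD in WT but from 29.6 to 35.1 RPKM with SD in G93A, and the log2 fold of SD was larger in G93A by 0.71. For Ctss the log2 fold was -0.19 in WT and 0.40 in G93A, a difference of 0.58. Ctsk was 1.18-fold higher with SD in WT and 0.991-fold in G93A, a log2 difference of -0.25. Its G93A values were nearly level, with an estimated 173 read pairs under vehicle and 175 under SD, so that no reversal is shown for Ctsk. None of these folds reached 1.5 in either genotype.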

How the results depend on the processing

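The 9 members higher in G93A were the same genes under all 7 alternatives, under vehicle and under SD, although the alternative of a mean of at least 1 RPKM bears nothing on Ctse, which reaches it only through G93A + SD. Ctsk, the 1 member lower in G93A + SD against WT + SD, was not called with a pseudocount of 1 RPKM or a 2-fold threshold, which left 0 members. Ctse in WT + SD against WT vehicle was not called with a pseudocount of 1 RPKM (0 members). Of 160 recomputed member folds, 0 reversed and 4 moved by more than 1.5 times, all for Ctse with a pseudocount of 1 RPKM, where its folds were 2.0 (G93A against WT under vehicle), 8.28 (under SD), 1.25 (SD in WT) and 5.16 (SD in G93A). Counts over all names depended more on low values. With a pseudocount of 1 RPKM, 1552 names in place of 3782 were higher and 355 in place of 1915 lower in G93A vehicle, and 112 in place of 1626 were higher with SD in G93A. No paired analysis was possible because each condition has 1 library, and for the same reason no library could be left out. Depth limits Ctse in the WT libraries, with an estimated 20.9 and 47.4 read pairs.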

Other observations

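Of the names averaging 1 RPKM or more, 10 were at least 4-fold higher with SD in G93A, Ctse among them, and 15 were at least 4-fold lower. These names were looked at after the Ctse values were seen. Ctse, Ifi202b, C4a and H2-Ob reach that mean only through the G93A + SD value that also makes them 4-fold higher. Among the lower names, Serpina3h, H2-gs10 and Mir341 likewise reach it only through the G93A vehicle value. Ifi202b, an interferon-inducible gene on chromosome 1 from 173962569 to 173982844, had 0.0753 RPKM in WT vehicle, 0.160 RPKM in WT + SD, 0.0293 RPKM in G93A vehicle and 6.69 RPKM in G93A + SD. Both Ifi202b and Ctse lie on chromosome 1 and had their highest value in G93A + SD. Adamts4, also on chromosome 1, went the other way, with 17.0 RPKM in G93A vehicle and 3.29 RPKM in G93A + SD. In WT it had 10.9 RPKM under vehicle and 3.23 RPKM under SD. Complement gene C4a and H2-Ob on chromosome 17 were higher with SD in both genotypes, C4a 6.43-fold in WT and 6.73-fold in G93A, and H2-Ob 5.84-fold and 5.97-fold. Others on chromosome 17 were lower with SD in both, H2-T23 at 0.148-fold in WT and 0.177-fold in G93A, H2-T22 at 0.223-fold and 0.127-fold and Rps18 at 0.0504-fold and 0.0465-fold, as were Hmga1, Rps2 and Atp6v0c. The mice have a mixed B6/SJLF1 background, and differences between animals and with SD cannot be told apart. Within 1 Mb of Ctse, 20 other names averaged 1 RPKM or more, and 1 of them, Pm20d1, was at least 1.5-fold higher with SD in G93A (9.57 against 6.26 RPKM), beside 1.34% of all names of that level. Around Ctss, 42 names of that level lay within 1 Mb, of which 9 were at least 1.5-fold higher and 1 lower in G93A under vehicle, beside 13.5% and 4.68% of all names averaging 1 RPKM or more. Fcrls, the gene nearest to Ctse in pattern, had 1.61 RPKM in WT vehicle, 2.07 RPKM in WT + SD, 16.9 RPKM in G93A vehicle and 45.4 RPKM in G93A + SD.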
